A study of Mus musculus with 22 samples.

Results

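A set of 42 genes of glutathione metabolism and of the antioxidant programme run by the transcription factor NRF2 was followed across mouse livers that differed in genotype and diet. Members were taken by gene symbol, and the list was chosen with earlier results of these data known. Of the 42, 40 had an annotated row among the 24011 genes with a symbol, and Gsta1 and G6pdx were not analysed here. RNA came from whole liver of 22 female C57BL/6J mice aged 12 weeks, with 1 Affymetrix MoGene 2.0 ST array per mouse. Wild type mice ate chow (WT_chow, n = 5) or chow with ursodeoxycholic acid (WT_UDCA, n = 6), and Cyp2c70 knockout mice did likewise (KO_chow, n = 5; KO_UDCA, n = 6). Ursodeoxycholic acid (UDCA) is a hydrophilic bile acid that is used as a drug in bile duct disease, and mice got it as 0.1% of their food for 7 weeks, beginning when they were 5 weeks old. All mice were on the C57BL/6J background, and how the knockout allele was built is not given in the sources. Cyp2c70 encodes the cytochrome P450 behind the muricholic acids of mice, and its loss leaves a more hydrophobic mix of bile acids; the title of the series names bile duct disease and its reversal by UDCA as the question.

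Glutathione is a tripeptide of glutamate, cysteine and glycine that liver cells hold at high concentration and also secrete into bile. Cystine is brought in by the exchanger encoded by Slc7a11, glutamate-cysteine ligase (catalytic subunit Gclc, modifier subunit Gclm) makes the dipeptide, glutathione synthetase (Gss) adds glycine, and glutathione reductase (Gsr) returns the oxidised form to the reduced one with NADPH. Peroxidases spend glutathione on peroxides and transferases join it to electrophiles. NRF2, the product of Nfe2l2, is held back by KEAP1; when electrophiles or oxidants modify KEAP1, NRF2 builds up in the nucleus and binds antioxidant response elements in front of many of these genes.

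Cyp2c70 itself, as a check of the labels, had mean log2 intensities of 11.49 on chow and 11.43 on UDCA in wild type livers and of 10.65 and 10.51 in knockout livers (SD between 0.12 and 0.17, n = 5 or 6). Knockout and wild type values did not overlap, at 1.78-fold apart on chow and 1.9-fold on UDCA. Knockout values remained far above the array medians, which lay between 4.85 and 4.96, and whether the probes lie in the altered part of the gene is not given in the sources, so this check of the labels is limited. The KO_chow arrays stood apart on the first principal component and from each other (18.6, 53.4, 32.5, 15.7 and 51.9 for mice 1 to 5, against -13.1 to -0.7 for all other arrays). Of the 11 hepatocyte markers measured, which include Alb, Ttr and Apoa1, 0 were called in KO_chow against WT_chow by limma (0 at an unadjusted p below 0.05), and their median log2 difference was -0.06. Markers of other cells did move: 11 of 11 cholangiocyte markers, 12 of 12 markers of monocyte-derived macrophages, 9 of 12 of stellate cells and fibroblasts and 7 of 10 of neutrophils were higher, while 5 of 10 Kupffer cell markers were lower and 1 was higher. In RNA from whole liver, fewer cells of a type and less RNA per cell cannot be told apart. Close relatives among the transferases can share probe signal, so values of single Gstm, Gsta and Gstt genes are uncertain to that extent.

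On average, chow-fed knockout livers had more transcript for 4 of 5 genes of cystine import, glutathione synthesis and recycling. Some inducible redox enzymes such as Srxn1, Txnrd1 and Cbr3 were also higher on average. Theta class transferases and Gsto1, of the omega class, were lower. Several of these calls, those of Srxn1 and Txnrd1 among them, ended without KO_chow mice 2 and 5. Against WT_chow, 12 of the 40 members rose and 4 fell at an adjusted p below 0.05 (limma, Benjamini-Hochberg over 24011 genes), beside 7.69% of all genes called higher and 6.03% called lower. Members stood at a median log2 difference of 0.15, compared with -0.037 for all genes, and the 5 KO_chow values lay wholly above or wholly below the 5 WT_chow values for 11 members, beside 9.43% of all genes. With UDCA in knockout mice, 13 members fell and 5 rose against KO_chow, beside 6.22% of all genes lower and 5.03% higher, with a median difference of -0.072 for members and 0.033 for all genes. Both comparisons use the same KO_chow mice, so a high KO_chow value raises the first difference and lowers the second.

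**Figure D1:**
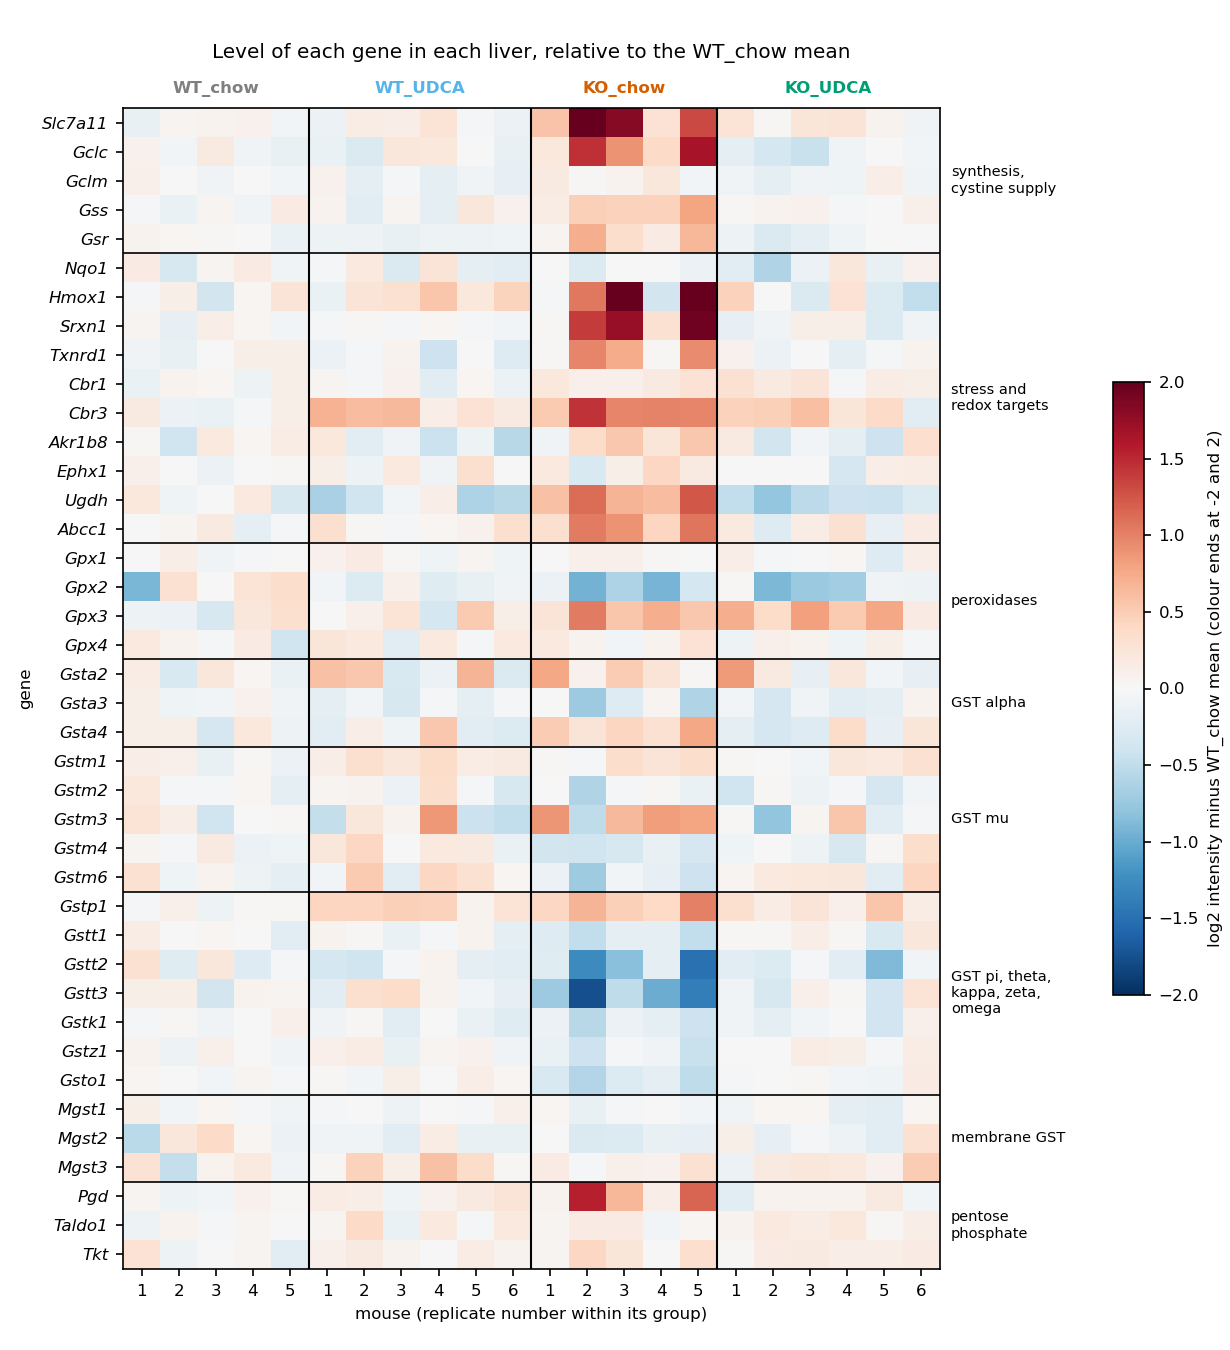
Each cell gives the log2 intensity of 1 member (rows, grouped by role) in 1 liver (columns, grouped by genotype and diet) minus the mean of that gene in WT_chow, with the colour ending at -2 and 2. KO_chow mice 2, 3 and 5 are red for Slc7a11, Hmox1 and Srxn1, while Gstt3 is blue in all 5. Mice 1 and 4 are paler for Slc7a11 and Srxn1, and for Hmox1 they do not exceed the WT_chow mean (6.77 and 6.42 against 6.79).

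Of the 5 genes of cystine import and glutathione synthesis and recycling, 4 were higher in KO_chow and 0 lower. Slc7a11 measured 2.93, 3.14, 3.14, 3.16 and 3.02 log2 units in the WT_chow mice and 3.65, 5.49, 4.90, 3.36 and 4.40 in the KO_chow mice, in order of mouse number. Every KO_chow value lay above every WT_chow value, and mice 2, 3 and 5 were the high ones. The rise was 1.28 ± 0.25 (SE; adjusted p = 0.00108), or 2.43-fold. Slc7a11 was dim, below the median intensity of its array on 20 of 22 arrays, and at such intensities a log2 difference tends to understate the change in transcript.

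Gclc, whose product sets the pace of glutathione synthesis, measured 9.72, 9.58, 9.82, 9.57 and 9.48 in WT_chow and 9.85, 11.10, 10.54, 10.01 and 11.29 in KO_chow, again without overlap. It rose by 0.92 ± 0.20 (SE; adjusted p = 0.00272). Its partner Gclm was not called: its values of 9.90 to 10.17 in KO_chow overlapped those of 9.88 to 10.06 in WT_chow, with a difference of 0.092 ± 0.079 (SE; adjusted p = 0.52) and a 95% confidence interval from -0.071 to 0.26. The interval of Gclc, from 0.51 to 1.33, lies above that of Gclm, although the difference between the genes was not itself tested.

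Gss ran from 7.72 to 8.01 in WT_chow and measured 8.00, 8.32, 8.31, 8.31 and 8.64 in the KO_chow mice. Mouse 1 fell inside the wild type range and the other KO_chow mice above it. Gss rose by 0.47 ± 0.10 (SE; adjusted p = 0.0027). Gsr, the glutathione reductase gene, measured 8.61, 9.28, 8.91, 8.73 and 9.22 in KO_chow against 8.43 to 8.63 in WT_chow, so that mouse 1 again lay within the wild type range. Its rise was 0.39 ± 0.10 (SE; adjusted p = 0.0121).

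Among the 10 inducible stress and redox targets, 5 rose in KO_chow and 0 fell. Srxn1 encodes sulfiredoxin, which restores over-oxidised peroxiredoxins. It measured 6.41, 6.18, 6.48, 6.38 and 6.29 in WT_chow and 6.38, 7.75, 8.08, 6.66 and 8.30 in KO_chow. Mouse 1 lay among the wild type values, mouse 4 just above them, and mice 2, 3 and 5 were higher by more than 1 log2 unit. The rise was 1.08 ± 0.24 (SE; adjusted p = 0.00363). Txnrd1, the cytosolic thioredoxin reductase, measured 8.54, 9.49, 9.25, 8.53 and 9.46 in KO_chow against 8.36 to 8.62 in WT_chow, so that mice 1 and 4 lay within the wild type range and mice 2, 3 and 5 above it. Its rise of 0.55 ± 0.15 (SE; adjusted p = 0.019) lost its call without KO_chow mouse 2, 3 or 5 (adjusted p = 0.0763, 0.0514 and 0.073).

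Cbr3, a carbonyl reductase gene, measured 3.60, 3.30, 3.29, 3.40 and 3.54 in WT_chow and 3.95, 4.87, 4.40, 4.42 and 4.41 in KO_chow. Mouse 2 was highest, mice 3, 4 and 5 were almost equal, and mouse 1 was lowest but still above every WT_chow mouse. The rise of 0.98 ± 0.16 (SE; adjusted p = 0.000165) belongs to a dim gene, below the array median on all 22 arrays. Ugdh makes UDP-glucuronic acid, the donor for glucuronidation, and measured 9.95, 10.48, 10.04, 9.98 and 10.61 in KO_chow against 9.58, 9.28, 9.38, 9.56 and 9.04 in WT_chow. Its rise was 0.85 ± 0.16 (SE; adjusted p = 0.000793), without overlap. Abcc1, a pump for glutathione conjugates (MRP1), measured 5.62, 6.33, 6.19, 5.73 and 6.37 against 5.30, 5.35, 5.47, 5.10 and 5.26 and rose by 0.75 ± 0.14 (SE; adjusted p = 0.00072), also without overlap.

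Hmox1 (haem oxygenase 1) had the second largest difference of the 40 members and was not called. It measured 6.75, 6.90, 6.42, 6.83 and 7.05 in WT_chow and 6.77, 7.84, 9.83, 6.42 and 9.41 in KO_chow. Mice 3 and 5 were far above the wild type range, mouse 2 above it, mouse 1 within it and mouse 4 at its lower end, and the difference was 1.26 ± 0.43 (SE; adjusted p = 0.0538). Nqo1, the quinone reductase that is often taken as a reporter of NRF2, measured 6.45, 6.19, 6.47, 6.47 and 6.35 in KO_chow and 6.62, 6.14, 6.52, 6.63 and 6.39 in WT_chow. The groups overlapped throughout, with a difference of -0.079 ± 0.14 (SE; adjusted p = 0.781) and a 95% confidence interval from -0.36 to 0.20, so a rise of the size seen in Srxn1 or Ugdh lies outside it. Cbr1, Akr1b8 and Ephx1, which encode a carbonyl reductase, an aldo-keto reductase and microsomal epoxide hydrolase, differed by 0.18, 0.32 and 0.12 (adjusted p = 0.162, 0.211 and 0.564).

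**Figure D2:**
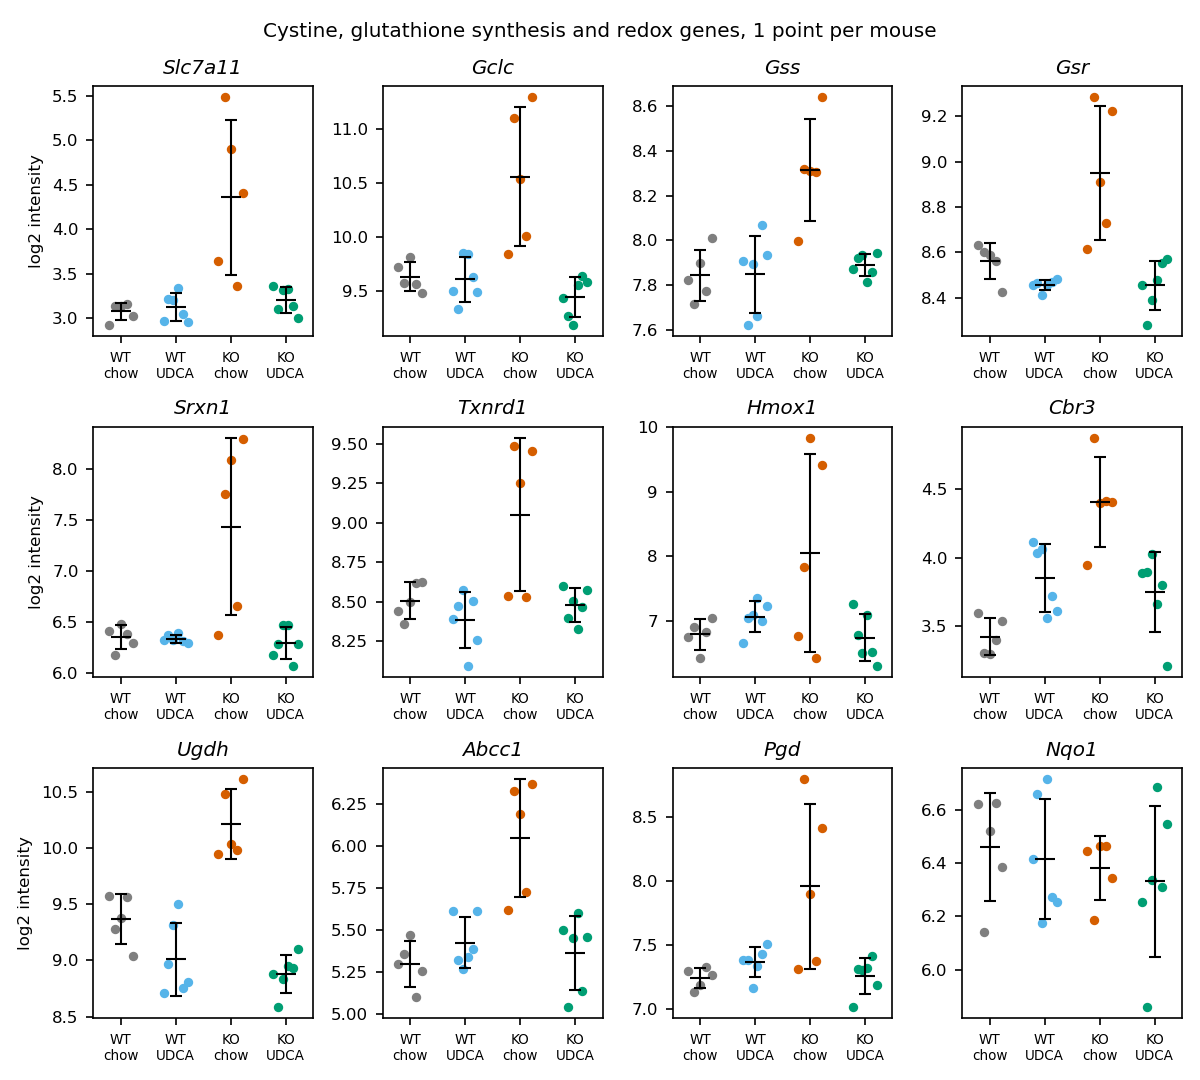
Log2 intensity of 12 cystine, glutathione synthesis and redox genes, with 1 point per mouse, horizontal lines at group means and bars of 1 SD; each panel has its own axis, which does not start at 0. KO_chow values of Slc7a11, Gclc, Cbr3, Ugdh and Abcc1 lie above all WT_chow values, those of Srxn1, Txnrd1 and Hmox1 spread from the wild type range upward, and Nqo1 overlaps in all groups.

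NRF2 binds the antioxidant response element with the core TGACNNNGC, where N is any base, and the windows before the starts of the members were read for it to show where those letters stand. Windows of 300 bases, from 250 before to 50 after a start, were taken from RefSeq (assembly GRCm38.p6), which held one for 34 of the 40 measured members. A gene can have several starts, and the start of a window need not be the outer end of the gene. The core was present on either strand for 7 of these 34 members (20.6%) and for 3781 of the 27025 genes with a window (14.0%), where a gene with several windows counted once. Of the members called higher in KO_chow, 4 of the 9 with a window had it (Ugdh, Srxn1, Txnrd1 and Pgd), as did 0 of the 3 called lower. Gclm, Mgst1 and Gsta3, called in neither knockout comparison, had it too. A match describes these letters in this window and is not evidence of binding. A missing core does not show that a gene lacks an element elsewhere. These counts are small, and the difference between them was not tested. The sequences below read 5′ to 3′ on the strand of the gene, with the core in capitals, also where it stands on the opposite strand (as GCNNNGTCA). Ugdh is shown because its window held the core at 2 places and it changed most with UDCA; its 250 bases before the start lie at chr5:65435843-65436092 on the minus strand. Those of Txnrd1 lie at chr10:82858956-82859205 on the plus strand. This window belongs to a start inside the gene, which runs from 82833951 to 82897724.
Ugdh: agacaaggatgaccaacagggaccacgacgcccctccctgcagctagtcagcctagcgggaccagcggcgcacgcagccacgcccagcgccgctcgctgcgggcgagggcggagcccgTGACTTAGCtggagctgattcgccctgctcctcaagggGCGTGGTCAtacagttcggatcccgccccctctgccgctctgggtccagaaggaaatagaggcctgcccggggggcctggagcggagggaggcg
Txnrd1: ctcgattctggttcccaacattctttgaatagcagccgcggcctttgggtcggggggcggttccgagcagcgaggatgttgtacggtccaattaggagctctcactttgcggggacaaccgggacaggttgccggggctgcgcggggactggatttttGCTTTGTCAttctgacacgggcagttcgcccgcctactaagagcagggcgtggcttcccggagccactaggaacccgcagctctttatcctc

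In Srxn1 and Pgd the core stood just after the start of the window used, and only the site with its flanks is given: Srxn1 at chr2:152105542-152105570 on the plus strand and Pgd at chr4:149166061-149166089 on the minus strand. The start used for Pgd also lies inside the gene, which runs from 149149991 to 149166705. Those used for Gclm and Gsta3, whose sites follow, lie inside their genes too, which begin at 122245487 and 21240565. Sites of Gclm (chr3:122245413-122245441, plus strand), Mgst1 (chr6:138140461-138140489, plus strand) and Gsta3 (chr1:21240454-21240482, plus strand) are set beside them because these genes carried the core and were not called.
Srxn1: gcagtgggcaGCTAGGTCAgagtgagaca
Pgd: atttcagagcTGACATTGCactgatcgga
Gclm: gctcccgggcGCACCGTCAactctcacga
Mgst1: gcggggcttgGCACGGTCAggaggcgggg
Gsta3: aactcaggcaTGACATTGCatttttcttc
Pgd and Gsta3 share the core TGACATTGC letter for letter. Pgd rose by 0.72 in KO_chow, whereas Gsta3 differed by -0.31 (adjusted p = 0.107).

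The 5 KO_chow mice differed widely among themselves, with a median SD over members of 0.257 log2 units compared with 0.13 in WT_chow. Mice 2 and 5 had the highest values of Gclc, Gsr, Txnrd1, Ugdh, Abcc1 and Pgd in the group, mouse 3 had the highest Hmox1, and mice 1 and 4 the lowest values of these 7 genes. The summed intensity of the 12 macrophage markers was 1715, 6596, 3324, 1821 and 5563 in KO_chow mice 1 to 5, against 724 to 800 in WT_chow and 812 to 940 in KO_UDCA. That of the 11 cholangiocyte markers was 1252, 1838, 1010, 1132 and 1461, against 519 to 576 in WT_chow and 546 to 726 in KO_UDCA. Macrophages and bile duct cells also express NRF2 targets, and the part of these cells in the member values was not tested.

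Without KO_chow mice 2 and 5, which stood farthest out on the first principal component, 5 members rose and 1 fell. Slc7a11 (0.89, adjusted p = 0.016), Cbr3 (0.83, 0.00457), Ugdh (0.62, 0.0278), Abcc1 (0.55, 0.0253) and Gstp1 (0.43, 0.0197) were still called higher, and Gstt3 lower (-0.74, 0.00983). Calls for Gclc (0.50, 0.0603), Gss (0.36, 0.0506), Gsr (0.19, 0.254), Srxn1 (0.69, 0.0949), Txnrd1 (0.27, 0.353) and Pgd (0.29, 0.213) ended, as did those for Gpx3, Gstt1, Gstt2 and Gsto1 (adjusted p = 0.128, 0.324, 0.247 and 0.0544). In the remaining 3 KO_chow mice, 10 of 12 macrophage markers, 10 of 11 cholangiocyte markers and 9 of 12 stellate cell and fibroblast markers were still called higher, whereas neutrophil markers went from 7 to 1 of 10. All genes called fell from 3295 to 1089 in this fit. In a fit to the KO_chow and WT_chow mice alone, which does not borrow the smaller spread of the other groups, 12 members were called, and Gsr, Srxn1, Txnrd1, Gstt1, Gstt2 and Pgd were not among them.

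Glutathione transferases did not move as a family. Gstp1, the pi class gene, rose: its KO_chow values of 10.25, 10.52, 10.30, 10.23 and 10.84 lay above all WT_chow values (9.80, 9.94, 9.73, 9.86 and 9.85), a difference of 0.60 ± 0.11 (SE; adjusted p = 0.000834). Genes of the theta class, whose enzymes act on small halogenated and epoxide substrates, went the other way. Gstt3 measured 7.92, 6.88, 8.14, 7.64 and 7.26 in KO_chow and 8.77, 8.77, 8.28, 8.71 and 8.70 in WT_chow, and it fell by 1.08 ± 0.19 (SE; adjusted p = 0.000392), 2.11-fold. All 5 KO_chow mice were below all WT_chow mice, with mice 2 and 5 lowest.

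Gstt2 measured 7.57, 6.53, 6.98, 7.63 and 6.32 in KO_chow against 8.12, 7.58, 8.04, 7.56 and 7.77 in WT_chow, a difference of -0.81 ± 0.21 (SE; adjusted p = 0.0109). Mice 2, 3 and 5 were below the wild type range and mice 1 and 4 in it. Gstt1 fell by 0.32 ± 0.097 (SE; adjusted p = 0.0271). This call ended without WT_chow mouse 1, 2 or 3 or KO_chow mouse 2 or 5 (adjusted p from 0.051 to 0.09). Gsto1, an omega class gene whose enzyme reduces dehydroascorbate and methylated arsenic, measured 8.52, 8.23, 8.55, 8.63 and 8.31 in KO_chow and 8.86, 8.82, 8.77, 8.88 and 8.78 in WT_chow. It fell by 0.38 ± 0.078 (SE; adjusted p = 0.0021), without overlap.

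In the remaining transferase classes 0 members passed the threshold on chow. Gsta4, whose enzyme conjugates the lipid peroxidation product hydroxynonenal, measured 9.03, 8.78, 8.95, 8.82 and 9.28 in KO_chow against 8.63, 8.63, 8.17, 8.73 and 8.41 in WT_chow, without overlap, and missed the threshold at 0.46 ± 0.16 (SE; adjusted p = 0.0561). Gstk1, a kappa class gene (-0.28 ± 0.096 (SE; adjusted p = 0.0566)), and Gstm4, of the mu class (-0.31 ± 0.11 (SE; adjusted p = 0.0578)), were below all WT_chow values and missed it likewise. Gstm3 measured 10.29, 8.90, 10.05, 10.24 and 10.19 in KO_chow, so that mouse 2 was below every WT_chow mouse and the other mice above (9.00 to 9.67), and the difference was 0.53 ± 0.27 (SE; adjusted p = 0.222). Gstm1, Gstm2 and Gstm6 differed by 0.19, -0.15 and -0.29 (adjusted p = 0.228, 0.521 and 0.226), and Gstz1, whose enzyme also takes part in tyrosine breakdown, by -0.22 (adjusted p = 0.102). Gsta2 was among the dimmest genes of the array (percentile 0.6 of mean level) and differed by 0.33 (adjusted p = 0.351). The membrane-bound enzymes Mgst1, Mgst2 and Mgst3 differed by -0.037, -0.18 and 0.13 (adjusted p = 0.813, 0.449 and 0.616).

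**Figure D3:**
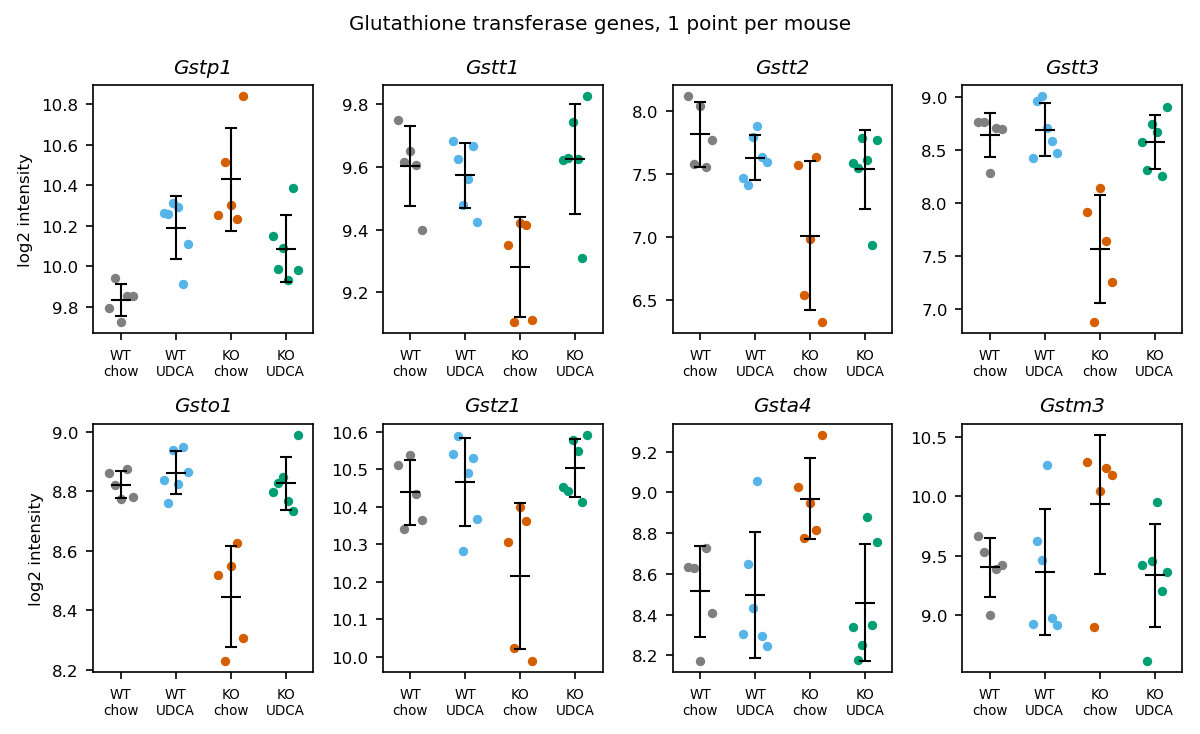
Log2 intensity of 8 glutathione transferase genes, with 1 point per mouse, horizontal lines at group means and bars of 1 SD; each panel has its own axis, which does not start at 0. Gstp1 and Gsta4 are above the WT_chow range in all 5 KO_chow mice, Gstt3 and Gsto1 below it in all 5, and Gstm3 shows 1 KO_chow mouse at 8.9 with the others above 10.

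Among the 4 glutathione peroxidases, 1 rose. Gpx3, which encodes the peroxidase secreted into plasma, measured 5.94, 5.92, 5.72, 6.26 and 6.35 in WT_chow and 6.30, 7.07, 6.59, 6.77 and 6.57 in KO_chow. Mouse 1 lay below the highest WT_chow mouse, and the other KO_chow mice lay above the wild type range. The rise was 0.62 ± 0.16 (SE; adjusted p = 0.0117). Gpx1, the main cytosolic peroxidase, and Gpx4, which reduces lipid hydroperoxides in membranes, differed by 0.045 and 0.11 (adjusted p = 0.793 and 0.579). Gpx2, best known from gut epithelium, was below the array median on all 22 arrays and differed by -0.59 ± 0.22 (SE; adjusted p = 0.0772).

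In the pentose phosphate pathway, a source of the NADPH that glutathione reductase uses, Pgd (6-phosphogluconate dehydrogenase) rose and the other 2 members, Taldo1 and Tkt, were not called. Pgd measured 7.29, 7.13, 7.19, 7.33 and 7.26 in WT_chow and 7.31, 8.80, 7.90, 7.37 and 8.41 in KO_chow. Mice 2, 3 and 5 were above the wild type range, mouse 4 lay barely above it and mouse 1 in it. The rise was 0.72 ± 0.19 (SE; adjusted p = 0.012). Taldo1 (transaldolase) and Tkt (transketolase) differed by 0.075 and 0.21 (adjusted p = 0.647 and 0.139).

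Many but not all synthesis and redox genes were lower in knockout livers with UDCA. In glutathione synthesis and cystine supply 4 of 5 genes fell, and among stress and redox targets 6 of 10. Gclm, Nqo1, Cbr1 and Ephx1 were not called by limma, with differences of -0.15, -0.048, -0.012 and -0.13 (adjusted p = 0.228, 0.874, 0.951 and 0.537). Ugdh had the largest change of all members: KO_UDCA values had a lowest value of 8.59, a median of 8.91 and a highest of 9.10, all below the lowest KO_chow value of 9.95, and it fell by 1.33 ± 0.15 (SE; adjusted p = 4.94e-06), 2.51-fold. Gclc had a lowest value of 9.19, a median of 9.50 and a highest of 9.65 in KO_UDCA and fell by 1.11 ± 0.19 (SE; adjusted p = 0.000493), again without overlap. Slc7a11 in KO_UDCA ran from 3.01 to 3.36, ending just below the lowest KO_chow mouse, and fell by 1.15 ± 0.24 (SE; adjusted p = 0.0025). Abcc1, Gsr and Gss fell without overlap as well, by 0.68, 0.50 and 0.43 (adjusted p = 0.00148, 0.00172 and 0.00546). In either direction, KO_UDCA and KO_chow values did not overlap for 9 of the 40 members, beside 1414 of all 24011 genes.

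A further 5 redox and NADPH genes fell with some overlap between KO_UDCA and KO_chow mice. Srxn1 had a lowest value of 6.07, a median of 6.28 and a highest of 6.47 in KO_UDCA and fell by 1.14 ± 0.23 (SE; adjusted p = 0.00216). Cbr3, Txnrd1 and Pgd fell by 0.66, 0.57 and 0.70 (adjusted p = 0.00549, 0.0128 and 0.0131). Txnrd1 lost its call without KO_chow mouse 2 or 5 (adjusted p = 0.0563 and 0.0568), and Pgd without KO_chow mouse 5 (adjusted p = 0.0572). Hmox1 had a lowest value of 6.30, a median of 6.65 and a highest of 7.26 in KO_UDCA and fell by 1.31 ± 0.41 (SE; adjusted p = 0.0413). That call ended when KO_chow mouse 2, 3 or 5 or KO_UDCA mouse 2, 3, 5 or 6 was left out, with adjusted p from 0.0633 to 0.157.

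Several transferases rose with UDCA, and Gstt3, Gsto1 and Gstz1 did so without overlap. Gstt3 had a lowest value of 8.25, a median of 8.62 and a highest of 8.91 in KO_UDCA, above every KO_chow mouse, and rose by 1.01 ± 0.18 (SE; adjusted p = 0.00066). Gsto1 rose by 0.38 ± 0.075 (SE; adjusted p = 0.0017). Gstt1, Gstz1 and Gstm6 rose by 0.35, 0.29 and 0.44 (adjusted p = 0.0175, 0.0281 and 0.0462), while Gstp1 and Gsta4 fell by 0.34 and 0.51 (adjusted p = 0.0396 and 0.0293). Each of these 5 calls depended on single mice: Gstt1 lost its call without KO_chow mouse 2 or 5, Gstz1 without either of them or KO_UDCA mouse 3, 4 or 6, and Gsta4 without KO_chow mouse 5 or KO_UDCA mouse 1, 2, 3 or 5. Gstm6 and Gstp1 lost theirs without KO_chow mouse 2 or 5 or KO_UDCA mouse 1, 2, 3, 4 or 6. The adjusted p without a mouse then reached 0.0645 for Gstt1, 0.106 for Gstz1, 0.103 for Gsta4, 0.169 for Gstm6 and 0.151 for Gstp1. Gstt2, Akr1b8, Gstm3 and Gstm4 missed the threshold (adjusted p = 0.0933, 0.0935, 0.149 and 0.073).

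Without KO_chow mouse 5, 8 members fell and 2 rose with UDCA, and all genes called fell from 2701 to 1632. Without mice 2 and 5, Slc7a11, Gclc and Ugdh fell by 0.76, 0.68 and 1.11 and Gstt3 rose by 0.68 (adjusted p = 0.0493, 0.00904, 0.000219 and 0.0218), and no other member was called; all genes called were 673. With UDCA, 12 of 12 macrophage markers, 11 of 11 cholangiocyte markers, 8 of 12 stellate cell and fibroblast markers and 6 of 10 neutrophil markers were lower than in KO_chow, and 0 of 11 hepatocyte markers were called by limma (1 at an unadjusted p below 0.05). The part of these cells in the UDCA differences was not tested.

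**Figure D4:**
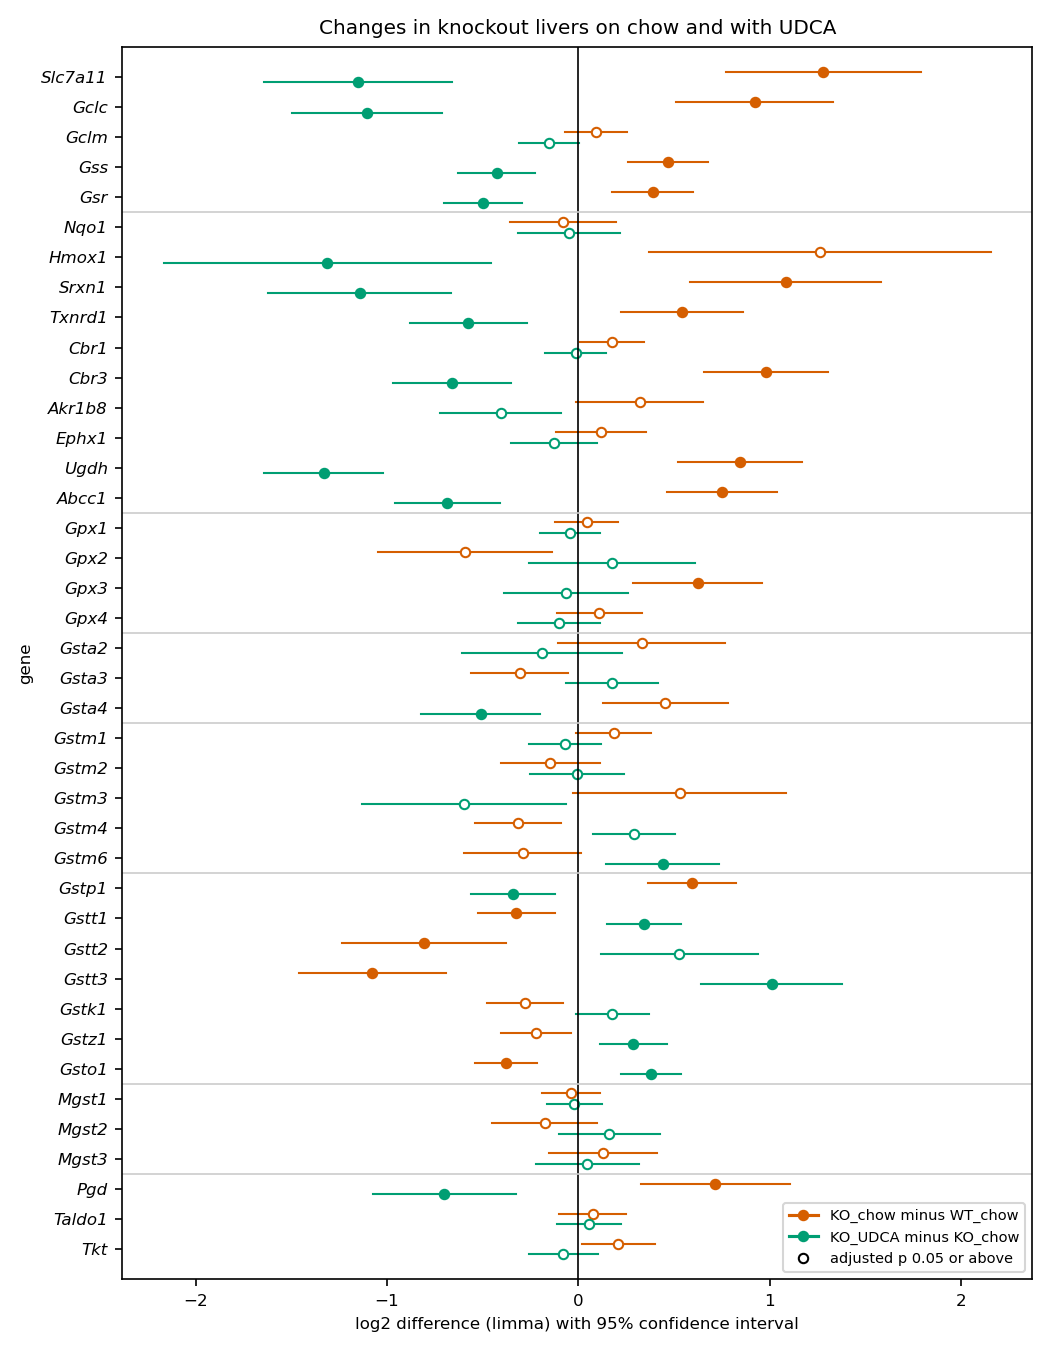
Log2 difference of each of the 40 members with its 95% confidence interval, KO_chow minus WT_chow in orange and KO_UDCA minus KO_chow in green; open points did not reach an adjusted p below 0.05, and horizontal lines part the roles. Both comparisons share the KO_chow mice. Gpx3 is the member that rose on chow (0.62) with a UDCA difference near 0 (-0.064).

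In UDCA-fed knockout livers 0 members differed from either wild type group by limma. Against WT_UDCA, 0 of 40 were called (2 at an unadjusted p below 0.05, smallest adjusted p = 0.714), beside 0% of all genes higher and 0.0167% lower. Against WT_chow, 0 of 40 were called (5 at an unadjusted p below 0.05, smallest adjusted p = 0.459), beside 0.00416% higher and 0.0208% lower. A p that misses the threshold does not show that the values are equal, and the 2 members with the smallest p against WT_chow were Gpx3 and Ugdh. Gpx3 had a lowest value of 6.20, a median of 6.66 and a highest of 6.86 in KO_UDCA and a lowest value of 5.68, a median of 6.15 and a highest of 6.56 in WT_UDCA; its mean of 6.60 was close to that of KO_chow (6.66) and above WT_chow (6.04), by 0.56 with a 95% confidence interval from 0.24 to 0.88 (adjusted p = 0.459). Ugdh had a mean of 8.88 in KO_UDCA compared with 9.37 in WT_chow, a difference of -0.48 ± 0.15 (SE; adjusted p = 0.589). In WT_UDCA its mean was 9.01.

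UDCA in wild type mice called 0 members (4 at an unadjusted p below 0.05, smallest adjusted p = 0.737), beside 0% of all genes in either direction. Those with the smallest p were Gstp1 (0.36, adjusted p = 0.737), Cbr3 (0.43, 0.787), Gstm1 (0.23, 0.84) and Ugdh (-0.36, 0.861). Cbr3 in WT_UDCA had a lowest value of 3.56, a median of 3.88 and a highest of 4.12, with WT_UDCA mice 1, 2 and 3 between 4.04 and 4.12 and the others between 3.56 and 3.72. That split follows the array numbers, which are up to 15 for WT_UDCA mice 1, 2 and 3 and from 16 for the others. Whether these numbers mark a batch is not given in the sources, and the cause of the split was not tested. Gstp1 in WT_UDCA had a lowest value of 9.91, a median of 10.26 and a highest of 10.31, and 5 of the 6 mice were above the highest WT_chow mouse.

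The genotype by diet interaction asks whether the UDCA difference in knockout mice departs from that in wild type mice, and it called 5 members lower and 1 higher, beside 2.07% of all genes lower and 0.6% higher. Of the members called in it, Cbr3, Gstp1 and Abcc1 had UDCA differences of opposite sign by genotype, and their wild type differences were not called. For Abcc1 the UDCA differences were 0.13 in wild type and -0.68 in knockout mice. For Cbr3 they were 0.43 in wild type and -0.66 in knockout mice, an interaction of -1.09 ± 0.21 (SE; adjusted p = 0.00652), and for Gstp1 0.36 and -0.34, an interaction of -0.70 ± 0.15 (SE; adjusted p = 0.0135). Ugdh differed with UDCA by -0.36 in wild type mice, where it was not called, and by -1.33 in knockout mice, with an interaction of -0.97 ± 0.21 (SE; adjusted p = 0.0148). Gclc, Abcc1 and Gstt3 had interactions of -1.09, -0.81 and 0.96 (adjusted p = 0.0311, 0.0205 and 0.0424).

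The interaction calls of Cbr3, Ugdh and Gstp1 held when any single mouse was left out, and those of Abcc1, Gclc and Gstt3 did not. Abcc1 lost its call without KO_chow mouse 2 (adjusted p = 0.0525). Gclc lost it without KO_chow mouse 2 or 5, KO_UDCA mouse 2 or 3, WT_chow mouse 2, 4 or 5 or WT_UDCA mouse 3 or 4 (adjusted p from 0.0515 to 0.0718). Gstt3 lost it without any 1 of 14 of the 22 mice (KO_chow 2 and 5, KO_UDCA 1, 3, 4 and 6, WT_chow 1, 2, 4 and 5, WT_UDCA 1, 4, 5 and 6), with adjusted p up to 0.0916. The count of members was 3 without KO_chow mouse 2 and 11 without KO_chow mouse 1 or 4. All genes called in the interaction were 301 without mouse 2, 1028 without mouse 1 and 1219 without mouse 4. Hmox1 had the largest interaction (-1.59) and was not called (adjusted p = 0.159).

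Regulators of NRF2 were read from a list of 12 genes, of which 2 rose (16.7%) in KO_chow and 0 fell, beside 7.69% and 6.03% of all genes. Nfe2l2, the NRF2 gene itself, measured 8.73, 8.31, 8.65, 8.39 and 8.37 in WT_chow and 8.72, 8.71, 9.05, 8.56 and 9.07 in KO_chow, with mice 3 and 5 above the wild type range and the others inside it. The rise was 0.33 ± 0.11 (SE; adjusted p = 0.0421). Sqstm1 encodes p62, which can take KEAP1 away from NRF2 and is itself an NRF2 target. It measured 9.99, 10.71, 10.71, 9.90 and 10.74 in KO_chow against 9.83, 9.71, 9.86, 9.70 and 9.76 in WT_chow, without overlap, and rose by 0.64 ± 0.13 (SE; adjusted p = 0.00169). Keap1 and Bach1, a repressor that competes for the same elements, differed by -0.16 and 0.28 (adjusted p = 0.186 and 0.206). With UDCA, Nfe2l2 and Sqstm1 fell by 0.43 and 0.60 (adjusted p = 0.00944 and 0.00236). Without KO_chow mice 2 and 5, neither was called on chow (adjusted p = 0.225 and 0.0543) or with UDCA (-0.38 and -0.40; adjusted p = 0.0943 and 0.0857).

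Other NRF2 targets, a list of 19, gave 1 rise (5.26%) and 2 falls (10.5%) in KO_chow, beside the 7.69% and 6.03% of all genes, with a median difference of -0.15. Osgin1 rose by 0.94 ± 0.25 (SE; adjusted p = 0.0118), and Akr1c12 and Trib3 fell by 0.52 and 0.39 (adjusted p = 0.0146 and 0.00943). Me1, the malic enzyme, and Abcc4, a basolateral bile acid pump, were not called on chow (-0.37 and 0.32; adjusted p = 0.242 and 0.0514). With UDCA 3 fell and 1 rose: Osgin1, Aox1 and Abcc4 by -1.21, -0.37 and -0.36, and Akr1c12 by 0.42 (adjusted p = 0.00156, 0.0199, 0.023 and 0.0451). These were 15.8% of the list lower and 5.26% higher, beside 6.22% and 5.03% of all genes. In the fit without KO_chow mice 2 and 5, 0 of the 19 were called on chow by limma (adjusted p = 0.165, 0.254 and 0.0985 for Osgin1, Akr1c12 and Trib3), and with UDCA 1 was called lower and 0 higher.

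Among 19 genes of glutathione breakdown and transport, 1 rose (5.26%) and 1 fell (5.26%) in KO_chow, beside 7.69% and 6.03% of all genes. Slc3a2, the partner subunit of the cystine exchanger, rose by 0.54 ± 0.14 (SE; adjusted p = 0.0104) and Chac2, which degrades glutathione, fell by 0.53 (adjusted p = 0.0271). The canalicular pump Abcc2 (MRP2), which passes glutathione into bile, and its basolateral relative Abcc3 were not called (-0.15 and -0.27; adjusted p = 0.27 and 0.0799). Without KO_chow mice 2 and 5, Slc3a2 and Chac2 differed by 0.24 and -0.22 (adjusted p = 0.206 and 0.411), and 0 of the 19 were called on chow or with UDCA. With UDCA, Oplah rose by 0.40 and Dpep2 and Slc3a2 fell by 0.46 and 0.42 (adjusted p = 0.0419, 0.0237 and 0.039). These calls were 5.26% of the list higher and 10.5% lower, beside 5.03% and 6.22% of all genes.

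Of 15 genes listed under cysteine and methionine supply, 5 fell (33.3%) and 0 rose in KO_chow, beside 6.03% of all genes lower and 7.69% higher. The list also holds genes that use or break down cysteine or oxidise sulfide and sulfite, so its counts do not measure supply alone. All 15 differences were negative, with a median of -0.27, and 13826 of all 24011 genes also had a negative difference. Bhmt2, a methyltransferase that makes methionine, fell by 0.76, Ethe1 and Suox of sulfide and sulfite oxidation by 0.58 and 0.52, and Mpst, which transfers sulfur from mercaptopyruvate, by 0.56 (adjusted p = 0.000471, 0.0288, 0.0106 and 0.000745). Cth (cystathionine gamma-lyase), which makes cysteine, was not called (-0.23, adjusted p = 0.418). With UDCA 5 of the 15 rose (33.3%) and 0 fell, with a median of 0.25, beside 5.03% of all genes higher and 6.22% lower. Without KO_chow mice 2 and 5, 2 of the 15 were still called lower on chow, Bhmt2 and Mpst (-0.50 and -0.42; adjusted p = 0.00529 and 0.0159), and 1 was called higher with UDCA.

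Thioredoxin, peroxiredoxin, superoxide dismutase and catalase genes gave 4 falls (18.2%) and 0 rises among 22, with a median of -0.18. Of all genes, 6.03% were called lower and 7.69% higher. The glutaredoxin genes Glrx and Glrx5, the sestrin gene Sesn1 and the mitochondrial reductase gene Txnrd2 fell by 0.48, 0.46, 0.38 and 0.35 (adjusted p = 0.0274, 0.00567, 0.025 and 0.00524), in contrast to the rise of cytosolic Txnrd1. Prdx1, an NRF2 target, and Txnip, an inhibitor of thioredoxin, were not called (0.10 and -0.29; adjusted p = 0.507 and 0.533). With UDCA 5 of the 22 rose (22.7%) and 0 fell, beside 5.03% of all genes higher and 6.22% lower. In the fit without KO_chow mice 2 and 5, 0 of the 22 were called on chow or with UDCA.

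Among 11 other NADPH-producing enzymes, 2 rose (18.2%) and 2 fell (18.2%) in KO_chow, beside 7.69% and 6.03% of all genes. Mthfd2, the mitochondrial folate enzyme that is low in adult liver, measured 4.62, 4.22, 4.48, 4.27 and 4.41 in WT_chow and 4.57, 6.65, 5.64, 4.97 and 6.05 in KO_chow, with mouse 1 in the wild type range, and rose by 1.18 ± 0.24 (SE; adjusted p = 0.00197). Rpia, a pentose phosphate isomerase gene that makes no NADPH itself, rose by 0.41, and Mthfd1, the cytosolic folate enzyme, and Shpk, a sedoheptulose kinase gene that makes none either, fell by 0.55 and 0.52 (adjusted p = 0.0185, 0.00246 and 0.0103). In 16 further transferases, peroxidases and relatives, 4 rose (25%) and 4 fell (25%), beside the same shares of all genes. The rises include Hpgds (0.52), the prostaglandin D synthase of blood cells, and Alox5ap (0.60), the leukotriene cofactor of myeloid cells, and the falls Gpx6 (-0.96) and Gstm7 (-0.56), with adjusted p = 0.000392, 0.0141, 0.00278 and 0.00282. With KO_chow mice 2 and 5 left out, 2 of the 16 were called higher on chow and 0 lower, and of the 11 NADPH enzymes 1, Mthfd2 (0.66, adjusted p = 0.0313), was called.

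**Figure D5:**
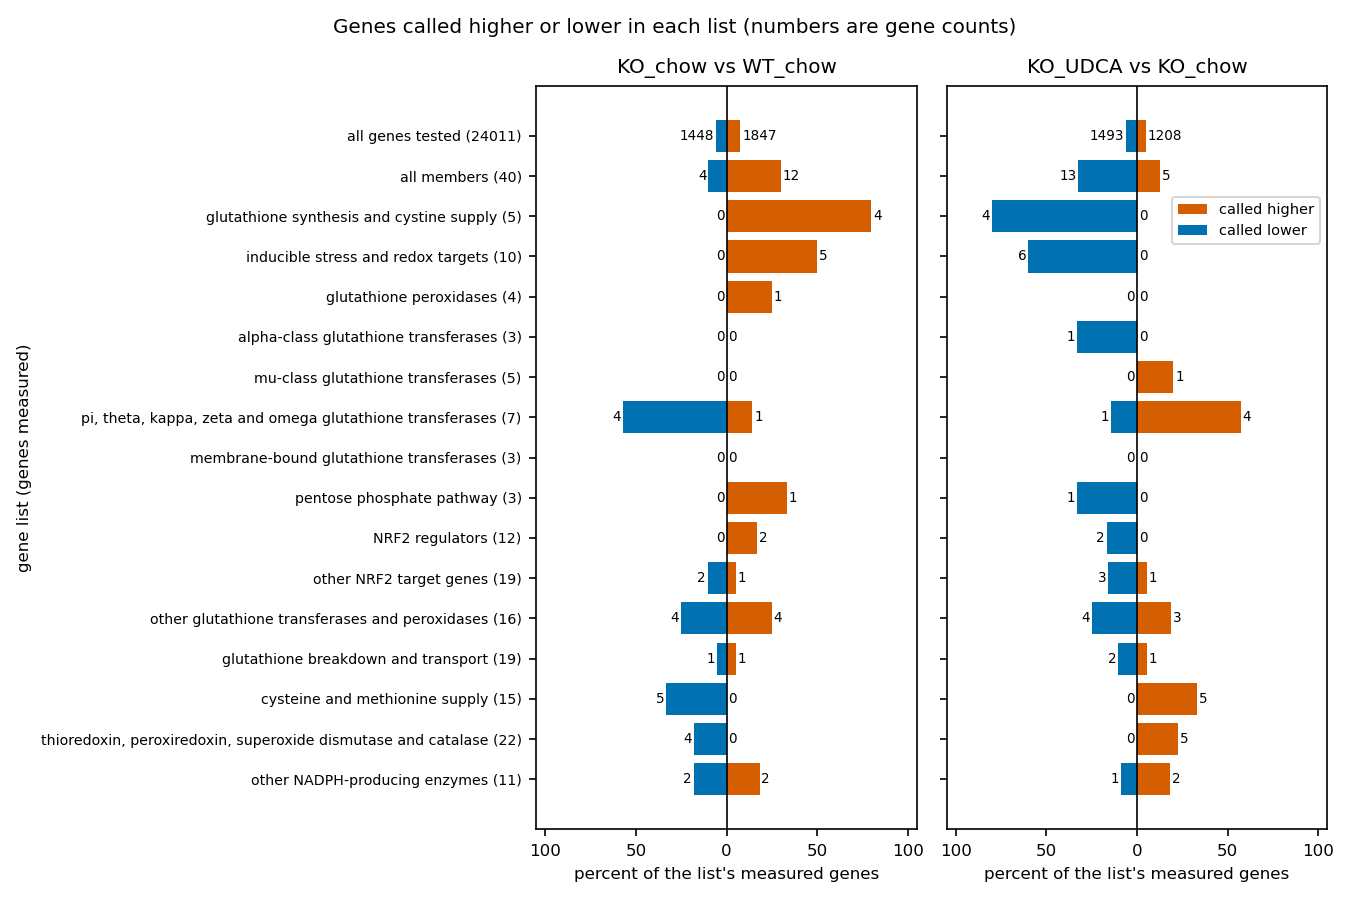
Percent of the measured genes of each list called higher (orange, right) or lower (blue, left), with gene counts at the bars, for KO_chow against WT_chow and KO_UDCA against KO_chow, which share the KO_chow mice. Glutathione synthesis and cystine supply has 4 of 5 higher on chow and 4 of 5 lower with UDCA. The list labelled cysteine and methionine supply has 5 of 15 lower and then 5 of 15 higher. It also holds genes of cysteine breakdown and of sulfide and sulfite oxidation.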

How the data were processed

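RNA from 22 livers was measured on 22 arrays, 1 per mouse. The authors deposited intensity values on the unlogged scale, made by RMA with a probe-level model per the labels; no RMA version and no genome build is named in the sources used. Of 24973 rows, 24015 had 1 gene symbol, 0 had several and 958 had none. For the 4 symbols on several rows the brightest row was kept, which left 24011 genes; 23920 of these and all 40 measured members matched RefSeq GRCm38.p6 by gene identifier, and 0 symbols changed. Intensities were converted to log2 with no pseudocount and no filter on dim genes, and no detection call was used. With limma 3.58.1 (R 4.3.3), a model of 4 group means that share a variance was fitted on the 22 arrays and 6 comparisons were drawn from it. P-values are two-sided, adjusted by Benjamini-Hochberg over all 24011 genes, and a gene was called at an adjusted p below 0.05. The script was tested on simulated data. Confidence intervals are at 95%, and the number of mice limits the precision. Because member values spread more in KO_chow than in WT_chow, the shared variance can make p-values of comparisons with KO_chow too small.

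Numbers of mice follow record order and pair no mice across groups. All members could be named; of each further list, up to 4 called genes per comparison with the largest change and a few fixed names (Nfe2l2, Keap1, Bach1, Txnip, Prdx1, Me1, Cth, Abcc2, Abcc3 and Abcc4) were named. Members, lists and the naming rule were chosen with earlier results of these data known. Lists are described by counts and medians, with no test of a list. Alternatives were quantile normalization, centring of arrays, a pseudocount of 16, a filter on dim genes, a fit to the compared groups, an intensity trend, array weights, the run of array numbers (up to 15, and from 16) as a term and leaving out each mouse; leaving out KO_chow mice 2 and 5 together was added after seeing the data.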

Additional observations from a re-analysis of the deposited data

Results flagged for a closer look

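Of 160 sets of values (40 members in 4 groups), 8 had a mouse far from the rest of its group, and 1 in 20, or 8, is what chance gives. In KO_chow, mouse 2 was low for Gstm3 (8.9, nearest other mouse 10.05) and Gstm2 (7.29, nearest 7.75). In KO_UDCA, mouse 4 was low for Ephx1 (10.25, nearest 10.57), mouse 5 for Gstt2 (6.93, nearest 7.54) and mouse 1 for Tkt (8.07, nearest 8.19). In WT_chow, mouse 1 was low for Gpx2 (2.19, nearest 3.11) and mouse 3 for Gstt3 (8.28, nearest 8.70), and in WT_UDCA mouse 3 was low for Gsr (8.41, nearest 8.46).

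For 6 members the effect of UDCA differed between genotypes in the limma interaction test, with log2 differences of -1.09 for Gclc (adjusted p = 0.0311), -1.09 for Cbr3 (0.00652), -0.97 for Ugdh (0.0148), -0.81 for Abcc1 (0.0205), -0.70 for Gstp1 (0.0135) and 0.96 for Gstt3 (0.0424). Cbr3 was called in the interaction under every alternative in which it was tested.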

How the results depend on the processing

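No called member changed direction under any alternative run. The count for KO_chow against WT_chow, 16 in the reported fit, was 6 without KO_chow mice 2 and 5, and 14 to 21 when single mice were left out; 6 of its 16 calls held under every alternative in which the gene was tested. The count for KO_UDCA against KO_chow, 18 as reported, was 11 in a fit to those groups only, 4 without KO_chow mice 2 and 5, and 10 to 20 without single mice, and 4 of its 18 calls held throughout. The interaction count of 6 was 1 without KO_chow mice 2 and 5 and 3 to 11 without single mice, and 1 of its 6 calls (Cbr3) held throughout. Counts over all genes moved as well without single mice. They ran from 2219 to 3849 for KO_chow against WT_chow, from 1632 to 3201 for KO_UDCA against KO_chow and from 301 to 1219 for the interaction. The comparisons KO_UDCA against WT_UDCA, WT_UDCA against WT_chow and KO_UDCA against WT_chow called 0 members under every alternative. In a fit to KO_chow and WT_chow only, 12 members were called; Gsr, Srxn1, Txnrd1, Gstt1, Gstt2 and Pgd lost their calls and Gsta4 and Gstm4 gained them. Hmox1 was called on chow with the dim genes left out, the intensity trend, array weights, the run of array numbers as a term, or without KO_chow mouse 1 or 4. The filter on dim genes left 34 members. The causes of these changes were not tested. No paired analysis was possible because the labels give the mice no replicate numbers shared between groups.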

Other observations

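Among genes outside the member set, Akr1c12, Hpgds and Bhmt2 were also called in the genotype by diet interaction, with log2 differences of 0.72, -0.55 and 0.67 (limma, adjusted p = 0.0431, 0.0157 and 0.0481). For Akr1c12 the UDCA difference was -0.30 in wild type and 0.42 in knockout mice, and for Bhmt2 -0.19 and 0.48. Without KO_chow mice 2 and 5, all 3 interaction calls ended, with differences of 0.53 for Akr1c12, -0.54 for Hpgds and 0.41 for Bhmt2 (adjusted p = 0.268, 0.0662 and 0.203).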
